A study of Homo sapiens with 4 samples.

Results

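Hypoxia response and glycolysis genes were taken as the rows of the deposited table whose symbol is among 35 names, and all 35 were found among its 23143 gene symbols. Of these, 14 belong to the response to low oxygen outside glycolysis and 21 to glucose uptake, glycolysis and the fate of pyruvate. The values are FPKM, fragments scaled by transcript length and by library size, from polyadenylated RNA of A549, a human lung adenocarcinoma line. The DOX group, 2 libraries, came from cells given doxycycline and labelled as overexpressing GATA4, a GATA-binding transcription factor active in heart and endoderm. The noDOX group, 2 libraries, came from the same line with GATA4 labelled as normal, and the design text calls its treatment vehicle. The sources used here give no times, doses, oxygen tension or culture density, nor whether the cells are 1 clone. Both groups share the line, and cells given doxycycline without the inducible GATA4 were not analysed here, so GATA4 and doxycycline itself cannot be told apart.

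Cells sense oxygen through prolyl hydroxylases of the EGLN family, which use oxygen to mark the alpha subunits of hypoxia-inducible factor (HIF) for destruction by the VHL ligase. When oxygen is short the alpha subunits HIF1A and EPAS1 persist, pair with ARNT and bind short DNA elements with the core ACGTG or GCGTG. Known targets carry glucose into the cell, speed glycolysis, turn pyruvate to lactate and away from mitochondria, export acid and call in blood vessels, and many tumours express them also in the presence of oxygen.

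GATA4 was at 75.0 and 48.0 FPKM in DOX libraries 1 and 2, against 12.2 and 14.5 FPKM in noDOX libraries 1 and 2. The epithelial keratins KRT8 and KRT18 were between 1728 and 5245 FPKM in all 4 libraries, and CDKN2A, known to be deleted in A549, was listed at 0 in each. The other epithelial markers were less even. EPCAM, an epithelial adhesion protein, was at 3.83 and 3.08 FPKM in DOX libraries, against 8.27 and 13.7 FPKM in noDOX libraries, without overlap (log2 difference -1.40, SE 0.29; limma, adjusted p = 0.494). KRT19 was at 11.99 and 86.98 FPKM in DOX libraries, against 53.5 and 7.49 FPKM in noDOX libraries, and the adhesion protein CDH1 was at 25.8 and 10.6 FPKM in DOX libraries, against 8.73 and 17.6 FPKM in noDOX libraries, both with overlap. The blood markers PTPRC, CD3E and HBB were at 0.341 FPKM or less, while CD14 reached 15.9 FPKM. The fibroblast and endothelial markers summed to 2.18 and 3.04 FPKM in the DOX libraries, against 4.02 and 9.74 FPKM in the noDOX libraries. Most of each sum was the collagen gene COL1A1, at 1.76 and 2.88 FPKM in DOX libraries, against 3.76 and 8.46 FPKM in noDOX libraries. Of the others only COL3A1 passed 1 FPKM, at 1.14 FPKM in noDOX library 2. Depth is unknown, since the table holds no counts.

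Over the 12504 genes whose mean reached 1 FPKM, limma called 11 genes (0.088%) at a Benjamini-Hochberg adjusted p of 0.05. All 35 hypoxia and glycolysis genes passed the filter on low values and 0 were called, with adjusted p from 0.231 to 0.999. CA9 passed that filter only through its noDOX libraries, with means of 5.35 FPKM in noDOX and 0.228 FPKM in DOX. It could therefore enter the test only as a gene lower in DOX. At an unadjusted p under 0.05, 4 of the 35 were lower in DOX (CA9, ALDOC, ANGPTL4 and PFKFB3), where the share over all tested genes was 3.52%. By the same measure 1 of the 35, VEGFA, was higher, where the share over all genes was 2.82%. The DOX libraries both lay below the noDOX libraries for 16 of the 35 genes (45.7%), against 17.3% of all tested genes. Both lay above for 2 genes, VEGFA and SLC2A1 (5.71%), against 14.7% of all tested genes. The log2 difference was below 0 for 28 of the 35, and for 27 after quantile normalization, which turned ENO1. Over all tested genes the share below 0 was 56.1%. The median log2 difference, DOX minus noDOX on log2(FPKM + 1), was -0.38 over the 35 genes and -0.044 over all genes tested. A lower FPKM in such bulk RNA can reflect fewer expressing cells or less RNA per cell, which cannot be told apart.

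**Figure D1:**
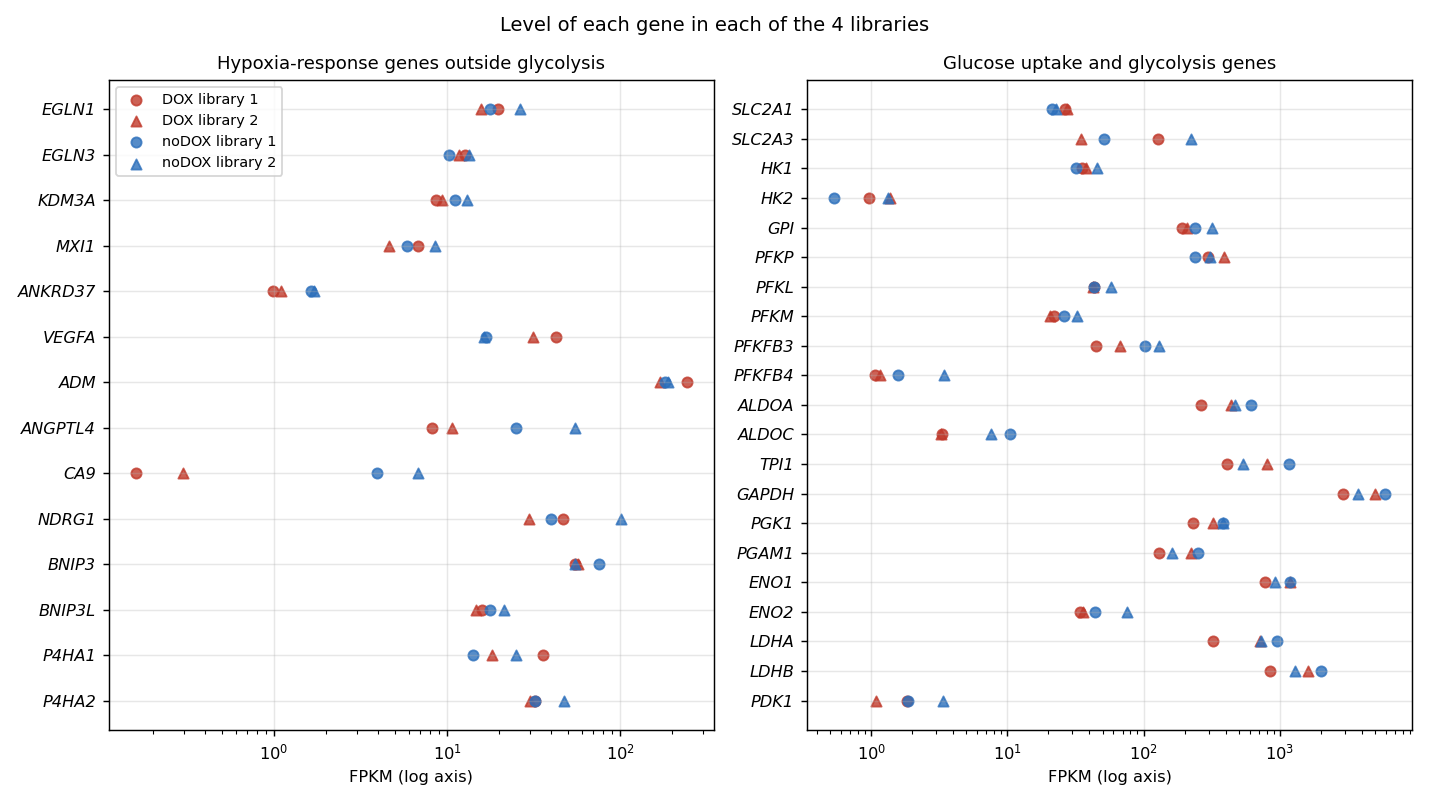
FPKM on a log axis of each of the 35 genes in DOX libraries (red) and noDOX libraries (blue), circle for library 1 and triangle for library 2. CA9 shows the widest gap, with both DOX libraries under 0.3 FPKM and both noDOX libraries above 3.9 FPKM, and GAPDH is the most abundant gene.

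The promoters shown are those of the 4 genes with the smallest unadjusted p among those of the 35 with a matched promoter. VEGFA, higher in DOX and with a smaller p than ANGPTL4 and PFKFB3, had no matched promoter. All 4 genes shown were lower in DOX, and neither that nor the HIF core was used to choose them. The sequences are the 250 bases before the start in RefSeq on GRCh38.p14, 5′ to 3′ on the gene's own strand. Every ACGTG or GCGTG, or its reverse complement CACGT or CACGC, is in capitals. CA9 lies at chr9:35673678-35673927 (plus strand), ALDOC at chr17:28576896-28577145 (minus strand), ANGPTL4 at chr19:8363905-8364154 (plus strand) and PFKFB3 at chr10:6144671-6144920 (plus strand).
CA9: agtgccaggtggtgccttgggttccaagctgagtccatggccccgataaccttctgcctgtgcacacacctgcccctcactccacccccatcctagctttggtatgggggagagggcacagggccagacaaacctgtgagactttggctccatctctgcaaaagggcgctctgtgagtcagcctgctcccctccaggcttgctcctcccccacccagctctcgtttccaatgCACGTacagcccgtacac
ALDOC: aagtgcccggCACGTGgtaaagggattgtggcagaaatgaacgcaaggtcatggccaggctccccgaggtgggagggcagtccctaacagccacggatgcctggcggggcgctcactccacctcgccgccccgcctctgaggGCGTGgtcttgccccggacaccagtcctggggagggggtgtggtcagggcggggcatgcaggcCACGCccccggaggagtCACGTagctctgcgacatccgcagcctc
ANGPTL4: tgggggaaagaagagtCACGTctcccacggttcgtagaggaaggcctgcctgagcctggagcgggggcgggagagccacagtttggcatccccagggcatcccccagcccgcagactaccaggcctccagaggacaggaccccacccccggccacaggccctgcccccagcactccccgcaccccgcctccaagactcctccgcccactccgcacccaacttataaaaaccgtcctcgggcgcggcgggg
PFKFB3: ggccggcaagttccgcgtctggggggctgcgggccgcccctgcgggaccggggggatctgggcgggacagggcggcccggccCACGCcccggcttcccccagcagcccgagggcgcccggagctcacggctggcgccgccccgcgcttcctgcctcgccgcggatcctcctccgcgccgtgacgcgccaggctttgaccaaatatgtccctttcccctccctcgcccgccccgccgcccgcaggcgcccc
In CA9 the core begins 18 bases before the start. ALDOC holds 5 matches, of which the CACGT and ACGTG that begin 240 and 239 bases before the start overlap as the palindrome CACGTG, which also reads as an E-box. ANGPTL4 has its match 234 bases and PFKFB3 its match 168 bases before the start. RefSeq promoters were matched for 31 of the 35 genes, leaving VEGFA, NDRG1, BNIP3L and SLC2A3. A core was present in 20 of the 31 (64.5%), against 43.2% of 35116 RefSeq promoters searched over the same 250 bases. Of the 20 genes with a core, 17 had log2 differences below 0 and the median was -0.43. Of the 11 without, 8 were below 0 and the median was -0.30. A GATA motif (AGATAA as well as AGATAG, and TGATAA as well as TGATAG, on either strand) was present in 4 of the 31 (12.9%), P4HA2, PFKFB4, PGAM1 and PDK1, against 22.3% of all promoters. The 35116 promoters were not limited to genes tested here or matched for base composition, and the 35 were listed as hypoxia and glycolysis genes. These shares are therefore no test of enrichment or depletion. A match is a description of letters, and its use by a factor in these cells was not measured.

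CA9, a membrane carbonic anhydrase that helps export acid and is a classic HIF target, had the lowest log2 difference of the 35 with the pseudocount of 1. It was at 0.160 and 0.297 FPKM in DOX libraries 1 and 2, against 3.93 and 6.76 FPKM in noDOX libraries 1 and 2. The DOX mean of 0.228 ± 0.097 FPKM was 0.0427 times the noDOX mean of 5.35 ± 1.999 FPKM (SD, n = 2 each). The groups did not overlap. The log2 difference was -2.34 (SE 0.30), an understatement for so low a gene, and it missed the threshold over all genes (limma, adjusted p = 0.231). With a pseudocount of 0.1 it was -4.03, and with a pseudocount of 5 it was -0.97, where ANGPTL4 at -1.57 and PFKFB3 at -1.01 were lower. Of the alternatives run, CA9 passed only with the replicate number as a block (limma, adjusted p = 0.0301), although same-numbered libraries did not deviate together. CA9 shares exon bases with ARHGEF39 on the other strand, and the sources used here do not give the strand setting of the quantification.

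The other genes of acid, stress and mitophagy also had lower DOX means. NDRG1, a stress and differentiation gene induced by hypoxia, was at 46.9 and 29.8 FPKM in DOX libraries, against 40.04 and 100.8 FPKM in noDOX libraries. The groups overlapped, and noDOX library 2 alone stood high. BNIP3L, a mitophagy receptor on the outer mitochondrial membrane, was at 15.99 and 14.6 FPKM in DOX libraries, against 17.8 and 21.4 FPKM in noDOX libraries, without overlap. Its close relative BNIP3 was at 55.004 and 57.1 FPKM in DOX libraries, against 75.4 and 54.9 FPKM in noDOX libraries, and the groups overlapped. The log2 differences were -0.75 (SE 0.53) for NDRG1, -0.33 (SE 0.20) for BNIP3L and -0.20 (SE 0.27) for BNIP3, and none passed (limma, adjusted p = 0.990, 0.986 and 0.999). Without noDOX library 2 the differences of NDRG1 and BNIP3L were -0.095 and -0.21, and without noDOX library 1 they were -1.41 and -0.46.

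The secreted factors had differences in opposite directions. VEGFA, the main angiogenic growth factor of the response, was at 42.5 and 31.3 FPKM in DOX libraries, against 16.8 and 16.4 FPKM in noDOX libraries. Its groups did not overlap, and the DOX mean was 2.23 times the noDOX mean. Its log2 difference of 1.09 (SE 0.24) was the highest of the 35 (limma, adjusted p = 0.520). ANGPTL4, a secreted inhibitor of lipoprotein lipase that answers to HIF, to PPAR receptors and to TGF-β, was at 8.14 and 10.6 FPKM in DOX libraries, against 25.1 and 55.1 FPKM in noDOX libraries. Here the DOX values were the lower ones without overlap, and the DOX mean was 0.234 times the noDOX mean. On the log2 scale it differed by -1.89 (SE 0.43; limma, adjusted p = 0.520). ADM, which encodes the vasodilator peptide adrenomedullin, was at 241.9 and 169.7 FPKM in DOX libraries, against 181.3 and 189.4 FPKM in noDOX libraries. ADM was thus the most abundant of the 14 genes outside glycolysis, and its groups overlapped (log2 difference 0.13, SE 0.33).

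Genes of oxygen sensing and feedback differed by less. EGLN1, the main oxygen-sensing HIF hydroxylase, was at 19.6 and 15.7 FPKM in DOX libraries, against 17.7 and 26.3 FPKM in noDOX libraries. EGLN3, the family member most strongly induced by hypoxia, was at 12.7 and 11.7 FPKM in DOX libraries, against 10.2 and 13.3 FPKM in noDOX libraries. Both overlapped between groups. KDM3A, a histone H3 lysine demethylase, was at 8.67 and 9.32 FPKM in DOX libraries, against 11.1 and 13.1 FPKM in noDOX libraries. ANKRD37, a small ankyrin repeat protein, was at 0.985 and 1.10 FPKM in DOX libraries, against 1.63 and 1.70 FPKM in noDOX libraries. For KDM3A and ANKRD37 the DOX libraries lay below the noDOX libraries, with log2 differences of -0.39 (SE 0.19) and -0.38 (SE 0.21; limma, adjusted p = 0.917 and 0.964). MXI1, an antagonist of MYC, ran from 4.59 to 6.78 FPKM in DOX and from 5.87 to 8.55 FPKM in noDOX libraries.

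The collagen prolyl hydroxylases P4HA1 and P4HA2, which modify procollagen and are induced in hypoxic matrix-making cells, had log2 differences of opposite sign. P4HA1 was at 35.7 and 18.2 FPKM in DOX libraries, against 14.2 and 24.9 FPKM in noDOX libraries. P4HA2 was at 32.3 and 30.2 FPKM in DOX libraries, against 32.1 and 47.6 FPKM in noDOX libraries. Both overlapped between groups, with log2 differences of 0.42 (SE 0.45) and -0.31 (SE 0.28). Without noDOX library 2 that of P4HA2 was -0.036, and that of P4HA1 ran from -0.044 to 0.89 with 1 library left out.

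**Figure D2:**
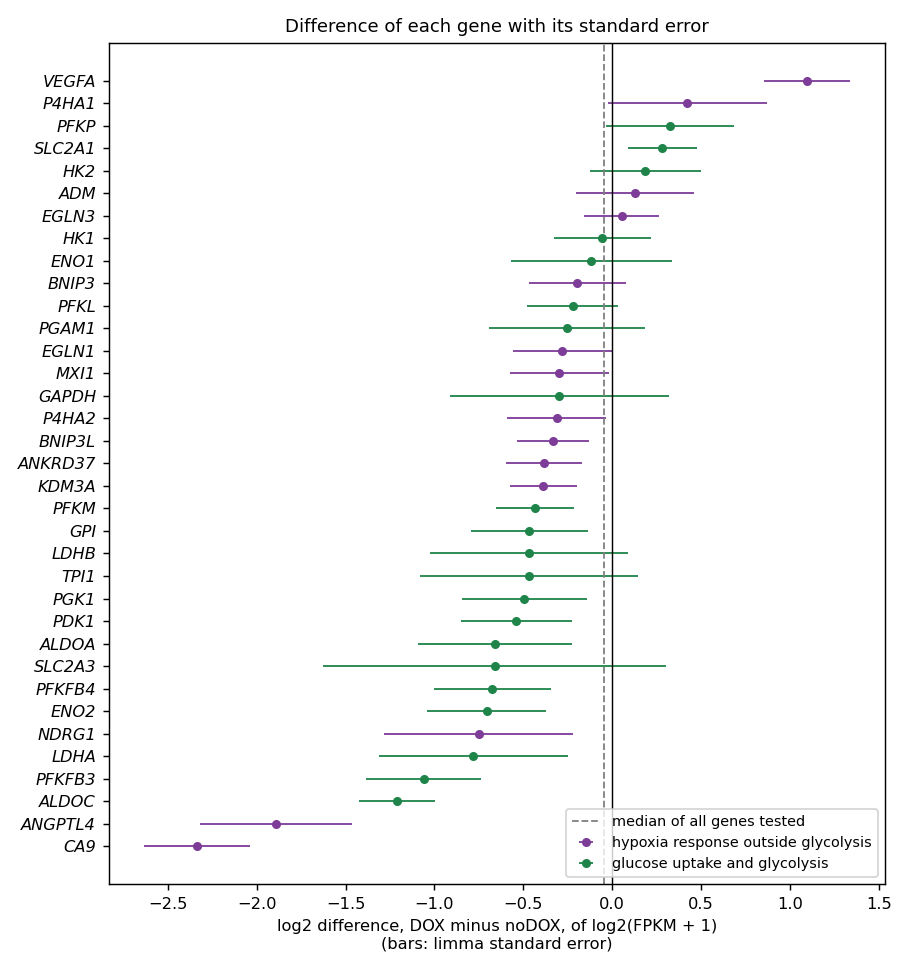
Log2 difference, DOX minus noDOX, of each of the 35 genes with its limma standard error, purple for hypoxia response outside glycolysis and green for glucose uptake and glycolysis; the dashed line is the median of all genes tested, -0.044. CA9 and ANGPTL4 lie farthest to the left, VEGFA farthest to the right, and 28 of the 35 lie below 0, among them ENO1, which lies above 0 after quantile normalization.

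Among the 21 genes of glucose uptake and glycolysis, 18 had log2 differences below 0 (ENO1 not so after quantile normalization) and the median was -0.47. Without DOX library 1 that median was -0.23, and without noDOX library 2 it was -0.30. Over all tested genes 56.1% were below 0. The DOX libraries both lay below the noDOX libraries for 11 of the 21, where the share over all tested genes was 17.3%, and above for 1, SLC2A1, where that share was 14.7%. The glucose transporter SLC2A1 (GLUT1) was at 26.7 and 27.4 FPKM in DOX libraries, against 21.4 and 22.7 FPKM in noDOX libraries. It had the smallest spread of the 35, its highest library being 1.28 times its lowest (log2 difference 0.28, SE 0.20; limma, adjusted p = 0.990). The high-affinity transporter SLC2A3 (GLUT3) was at 128.0 and 34.6 FPKM in DOX libraries, against 50.8 and 221.1 FPKM in noDOX libraries. Here the libraries of 1 group differed more than the groups did. HK1, the housekeeping hexokinase, ran from 35.5 to 37.7 FPKM in DOX and from 31.6 to 45.8 FPKM in noDOX libraries. HK2, the hexokinase that HIF induces in many tumours, was at 0.967 and 1.36 FPKM in DOX libraries, against 0.537 and 1.34 FPKM in noDOX libraries, near the filter of 1 FPKM.

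In upper glycolysis 7 of 9 genes had their DOX libraries below their noDOX libraries, as did 17.3% of all tested genes. PFKFB3, the kinase that makes fructose 2,6-bisphosphate and so drives phosphofructokinase, was at 44.8 and 66.6 FPKM in DOX libraries, against 102.9 and 128.7 FPKM in noDOX libraries. The DOX mean of 55.7 ± 15.4 FPKM was 0.481 times the noDOX mean of 115.8 ± 18.2 FPKM (SD, n = 2 each), with a log2 difference of -1.06 (SE 0.32; limma, adjusted p = 0.671). Its HIF-induced relative PFKFB4 was at 1.06 and 1.15 FPKM in DOX libraries, against 1.56 and 3.42 FPKM in noDOX libraries. GPI, which turns glucose 6-phosphate into fructose 6-phosphate, was at 190.6 and 207.2 FPKM in DOX libraries, against 237.9 and 318.1 FPKM in noDOX libraries.

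The phosphofructokinase subunits, which form the committed step, had differences of both signs. PFKM was at 22.1 and 20.4 FPKM in DOX libraries, against 26.1 and 32.3 FPKM in noDOX libraries. PFKL was at 42.8 and 42.5 FPKM in DOX libraries, against 43.3 and 57.6 FPKM in noDOX libraries. For PFKM and PFKL the DOX values lay below the noDOX values, although PFKL of noDOX library 1 was close to both DOX libraries. PFKP, the platelet form and the most abundant, was at 295.4 and 391.1 FPKM in DOX libraries, against 237.8 and 309.1 FPKM in noDOX libraries, with overlap. The log2 differences were -0.43 (SE 0.22) for PFKM, -0.22 (SE 0.26) for PFKL and 0.33 (SE 0.36) for PFKP. With 1 library left out they ran from -0.58 to -0.28 for PFKM and from -0.43 to -0.021 for PFKL, both nearest 0 without noDOX library 2, and from 0.12 to 0.53 for PFKP, nearest 0 without DOX library 2.

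The aldolases, which split fructose 1,6-bisphosphate, both had lower DOX values. ALDOC, the brain-type form, was at 3.28 and 3.27 FPKM in DOX libraries, against 10.4 and 7.58 FPKM in noDOX libraries. The DOX libraries nearly coincided, and their mean was 0.365 times the noDOX mean (log2 difference -1.21, SE 0.21; limma, adjusted p = 0.404). ALDOA, the major form, was at 263.9 and 440.9 FPKM in DOX libraries, against 617.0 and 471.1 FPKM in noDOX libraries. The groups did not overlap, but DOX library 2 and noDOX library 2 were close (log2 difference -0.66, SE 0.43). Without DOX library 1 the difference was -0.29, and without DOX library 2 it was -1.03. TPI1, triose phosphate isomerase, was at 408.6 and 800.4 FPKM in DOX libraries, against 1173 and 535.3 FPKM in noDOX libraries, with overlap. Its log2 difference was -0.47 (SE 0.61) over 4 libraries, 0.014 without DOX library 1 and 0.095 without noDOX library 1.

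Of the 5 lower glycolysis genes, all had log2 differences below 0, ENO1 not so after quantile normalization, where the share over all tested genes was 56.1%. For 2 of the 5 the DOX values were the lower ones without overlap, as for 17.3% of all tested genes. PGK1, which makes the first ATP of the pathway, was at 230.3 and 321.0 FPKM in DOX libraries, against 382.8 and 384.7 FPKM in noDOX libraries (log2 difference -0.50, SE 0.35). ENO2, the neuronal enolase, was at 34.4 and 35.6 FPKM in DOX libraries, against 44.0 and 75.5 FPKM in noDOX libraries (log2 difference -0.71, SE 0.33). For PGK1 and ENO2 the DOX libraries lay below the noDOX libraries. The difference of PGK1 was -0.26 without DOX library 1 and -0.73 without DOX library 2, and that of ENO2 was -0.32 without noDOX library 2 and -1.09 without noDOX library 1. GAPDH, the most abundant of the 35, was at 2912 and 5025 FPKM in DOX libraries, against 5907 and 3741 FPKM in noDOX libraries. ENO1, the major enolase, was at 778.7 and 1181 FPKM in DOX libraries, against 1180 and 918.4 FPKM in noDOX libraries. PGAM1, phosphoglycerate mutase, was at 128.6 and 221.6 FPKM in DOX libraries, against 251.4 and 161.6 FPKM in noDOX libraries. For GAPDH, ENO1 and PGAM1 DOX library 1 was the lowest of the 4, the groups overlapped, and the sign of the log2 difference turned when DOX library 1 or noDOX library 1 was left out.

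At the end of the pathway LDHA, which turns pyruvate into lactate, was at 325.6 and 716.6 FPKM in DOX libraries, against 945.0 and 730.5 FPKM in noDOX libraries. The groups did not overlap, but the gap rested on DOX library 1: the log2 difference was -0.78 (SE 0.53) over 4 libraries and -0.21 without that library. LDHB, the heart-type subunit and the more abundant in these cells, was at 841.0 and 1601 FPKM in DOX libraries, against 2004 and 1288 FPKM in noDOX libraries, with overlap. PDK1, the kinase that shuts pyruvate dehydrogenase and keeps pyruvate out of mitochondria, was at 1.84 and 1.08 FPKM in DOX libraries, against 1.87 and 3.34 FPKM in noDOX libraries. PDK1 values did not overlap, by a margin of a few hundredths of an FPKM, and it differed by -0.54 on the log2 scale (SE 0.31; limma, adjusted p = 0.977), or by -0.24 without noDOX library 2.

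**Figure D3:**
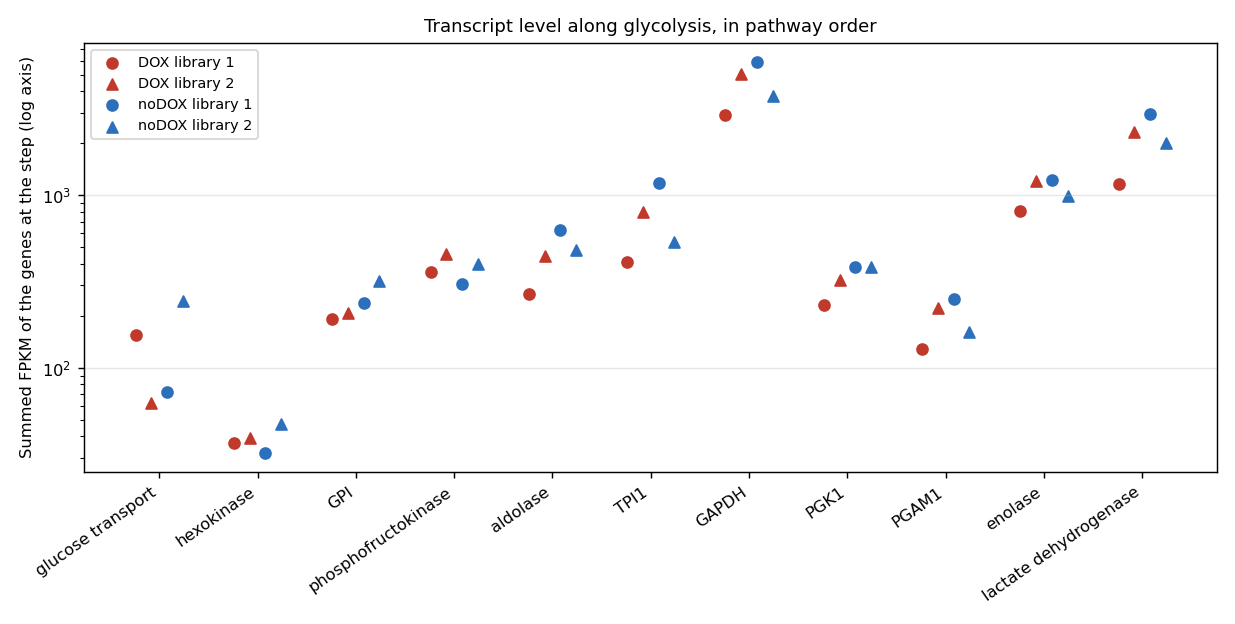
Summed FPKM, on a log axis, of the genes at each step of glycolysis in pathway order, DOX libraries in red and noDOX libraries in blue, circle for library 1 and triangle for library 2. The DOX libraries lie below the noDOX libraries at the GPI, aldolase and PGK1 steps and overlap with them at the other 8. Of all tested genes, 17.3% had both DOX libraries below both noDOX libraries.

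Summed by step, transcripts of 3 of 11 steps were lower in both DOX libraries, as the plot along the pathway shows. Of single genes, 17.3% of all those tested were lower in both DOX libraries. The aldolase step summed to 267.2 and 444.2 FPKM in DOX libraries, against 627.4 and 478.6 FPKM in noDOX libraries. The phosphofructokinase step was the only step of the 11 whose DOX mean exceeded the noDOX mean, at 1.15 times. All 21 genes together held 1.18 and 1.48% of the FPKM outside small RNA genes in DOX libraries, against 1.47 and 1.64% in noDOX libraries, and the groups overlapped narrowly.

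Libraries of the same group differed in a shared direction for 8 of the 35. ALDOA, TPI1, GAPDH, PGAM1, ENO1, LDHA, LDHB and BNIP3 were higher in noDOX library 1 than in noDOX library 2 and also higher in DOX library 2 than in DOX library 1. For TPI1 these log2 gaps were 1.13 within noDOX and 0.97 within DOX. Cytosolic ribosomal protein genes, 77 in number, had median gaps of 1.07 within noDOX and 0.72 within DOX in the same direction, and 76 had log2 differences below 0 between groups, with a median of -0.39. They held 19.3 and 24.2% of the FPKM outside small RNA genes in DOX libraries, against 29.8 and 22.0% in noDOX libraries. In the opposite direction went 12 of the 35, led by SLC2A3 with gaps of -2.10 within noDOX and -1.86 within DOX, then P4HA1 with -0.77 and -0.93 and NDRG1 with -1.31 and -0.64. The part of this shared library difference in the values above was not tested, apart from the alternatives that remove a trend on transcript length or leave out a library.

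**Figure D4:**
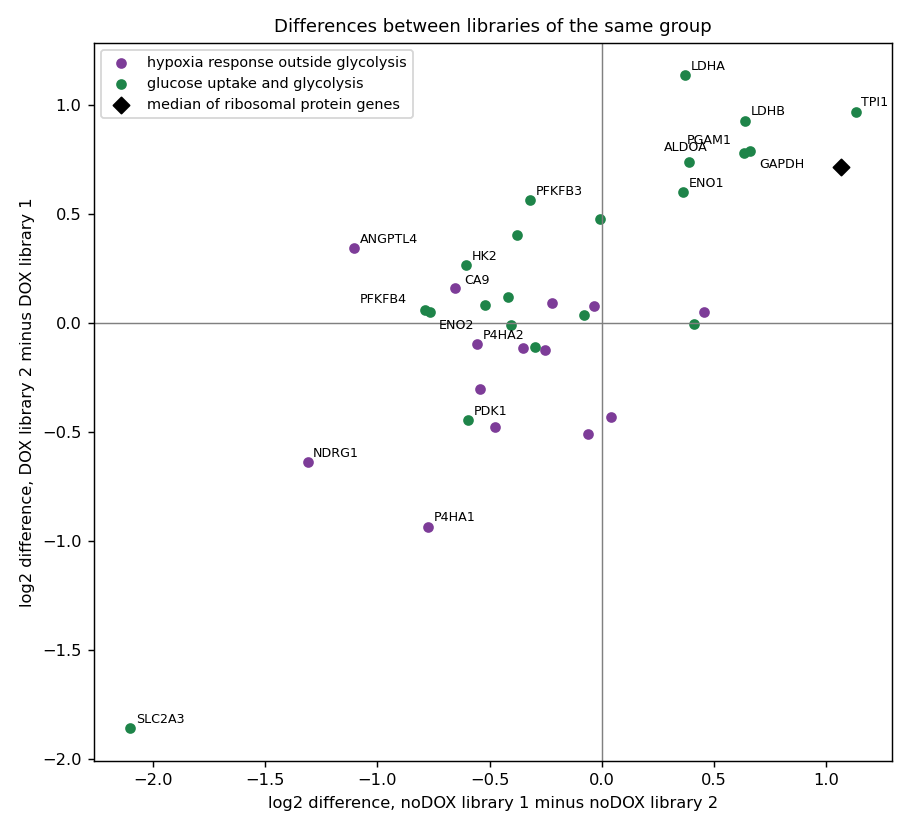
Log2 difference between the libraries of 1 group for each of the 35 genes, noDOX library 1 minus 2 on the horizontal axis and DOX library 2 minus 1 on the vertical axis, purple for hypoxia response outside glycolysis, green for glucose uptake and glycolysis, and a diamond for the median of ribosomal protein genes. TPI1, GAPDH, LDHB and PGAM1 sit at the upper right toward the ribosomal protein median of 1.07 and 0.72, 12 of the 35 genes sit at the lower left, and SLC2A3 is the farthest of them at -2.10 and -1.86.

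A share of paralogs within a library does not depend on how libraries were scaled, and 10 such shares were compared. With 2 against 2 libraries an exact two-sided permutation test cannot go below p = 0.333, so no share can pass and the values are a description. PFKP held 82.0 and 86.1% of the phosphofructokinase FPKM in DOX libraries, against 77.4 and 77.5% in noDOX libraries. The mean shares were 84.1 ± 2.9% in DOX and 77.4 ± 0.04% in noDOX (SD, n = 2 each; exact permutation p = 0.333). ALDOC held 1.23 and 0.737% of the aldolase FPKM in DOX libraries, against 1.66 and 1.58% in noDOX libraries. For PFKP and ALDOC the groups did not overlap, so ALDOC was lower also relative to ALDOA. Shares of other paralogs in the table were not computed, so there is no background for such shares. By FPKM of single genes, 17.3% of all tested lay lower and 14.7% higher in both DOX libraries.

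LDHB held 72.1 and 69.1% of the lactate dehydrogenase FPKM in DOX libraries, against 67.96 and 63.8% in noDOX libraries. EGLN3 held 39.2 and 42.5% of the EGLN1 and EGLN3 FPKM in DOX libraries, against 36.6 and 33.7% in noDOX libraries. EGLN2, another oxygen-sensing hydroxylase, was at 73.1 and 86.3 FPKM in DOX libraries, against 73.3 and 51.4 FPKM in noDOX libraries. EGLN2 was thus more abundant than EGLN1 and EGLN3, and it was left out of this share. A share that includes EGLN2 was not computed, so the difference holds only for EGLN3 relative to EGLN1. P4HA2 held 47.5 and 62.4% of the collagen prolyl hydroxylase FPKM in DOX libraries, against 69.4 and 65.6% in noDOX libraries. None of these 3 shares overlapped between groups. The LDHB share and the EGLN3 share relative to EGLN1 were higher in DOX, and the P4HA2 share was lower. Among single genes by FPKM, 17.3% of all tested lay lower and 14.7% higher in both DOX libraries. The shares of ENO2, HK2, SLC2A3, PFKFB4 and BNIP3 overlapped. The ENO2 share was 4.23 and 2.92% in DOX libraries, against 3.59 and 7.60% in noDOX libraries, and that of SLC2A3 was 82.8 and 55.8% in DOX libraries, against 70.3 and 90.7% in noDOX libraries.

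**Figure D5:**
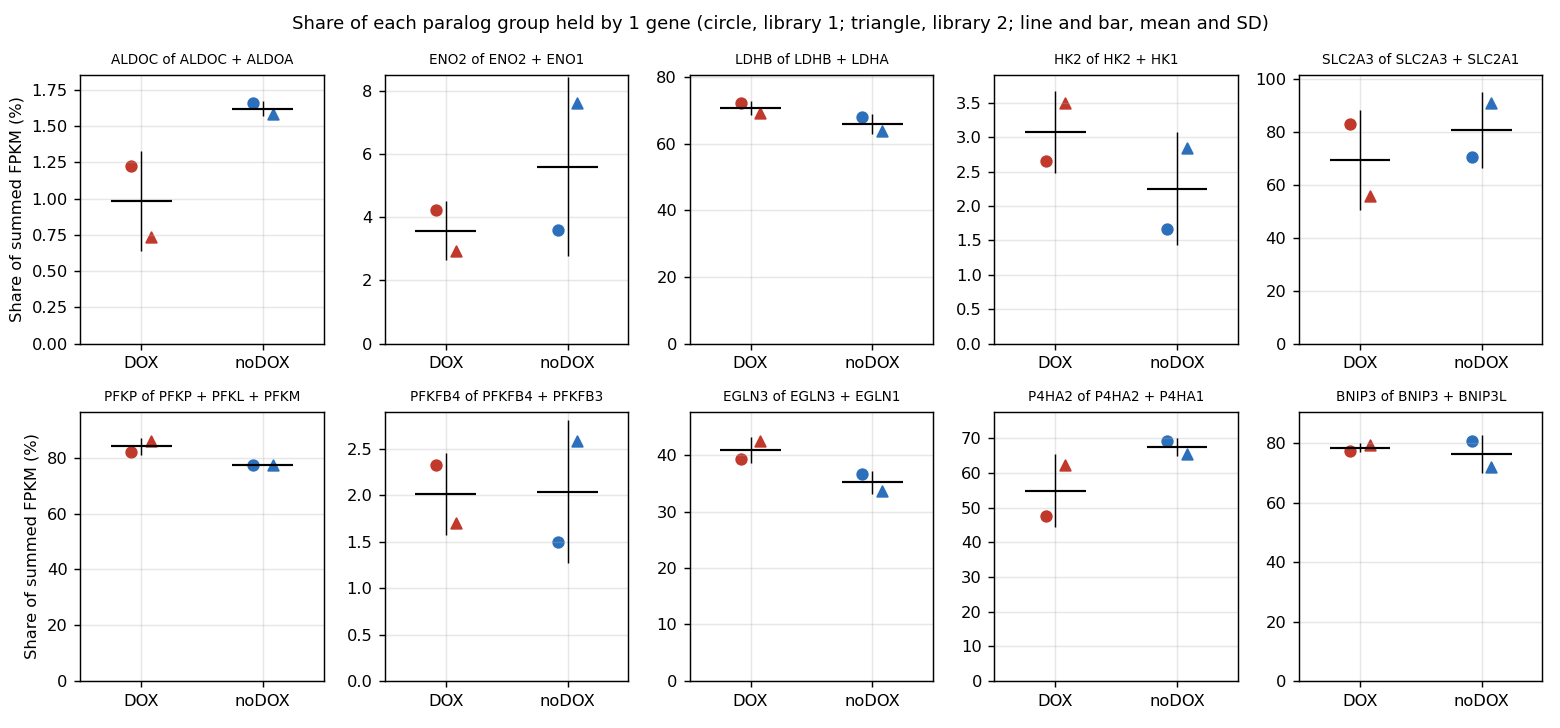
Share in percent of the summed FPKM of a paralog group held by the named gene, DOX left and noDOX right in each panel, with circles for library 1, triangles for library 2, and a line and bar for the mean and SD (n = 2). The PFKP, LDHB and EGLN3 shares lie higher and the ALDOC and P4HA2 shares lower in both DOX libraries, and the other 5 overlap. The EGLN3 share is of EGLN1 and EGLN3 only and leaves out the more abundant EGLN2. By FPKM of single genes, 17.3% of all tested lay lower and 14.7% higher in both DOX libraries.

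The HIF machinery itself was measured in 12 tested genes, and 0 were called by limma. At an unadjusted p under 0.05, 1 of the 12 was lower, where the share over all tested genes was 3.52%. EPAS1, the HIF-2 alpha subunit, was at 16.3 and 18.2 FPKM in DOX libraries, against 29.5 and 56.3 FPKM in noDOX libraries, without overlap (log2 difference -1.20, SE 0.36; limma, adjusted p = 0.671). HIF1A, the HIF-1 alpha subunit, was at 30.7 and 31.3 FPKM in DOX libraries, against 32.5 and 38.2 FPKM in noDOX libraries, a log2 difference of -0.18 (SE 0.22). Its DOX values were lower without overlap, by less than the spread between the noDOX libraries. Their partner ARNT was at 15.2 and 10.8 FPKM in DOX libraries, against 8.18 and 12.7 FPKM in noDOX libraries. VHL was at 23.6 and 17.0 FPKM in DOX libraries, against 17.1 and 22.4 FPKM in noDOX libraries, and EGLN2, the third oxygen-sensing hydroxylase, was at 73.1 and 86.3 FPKM in DOX libraries, against 73.3 and 51.4 FPKM in noDOX libraries. ARNT, VHL and EGLN2 overlapped between groups, as did CITED2, a HIF-induced competitor for the coactivator p300. HIF activity is set largely by the stability of the alpha proteins, which transcript levels do not measure.

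Of 38 other tested hypoxia-induced genes, 31 had log2 differences below 0, against 56.1% of all tested genes, with a median of -0.32. The DOX libraries both lay below the noDOX libraries for 15 of them (39.5%), against 17.3% of all tested genes, and above for 3, against 14.7% of all tested genes. None was called by limma (0). At an unadjusted p under 0.05, 6 of the 38 were lower, where the share over all tested genes was 3.52%. C7orf68 (HILPDA), a lipid droplet protein induced by hypoxia, was at 15.7 and 29.5 FPKM in DOX libraries, against 86.0 and 77.7 FPKM in noDOX libraries (log2 difference -1.87, SE 0.36; limma, adjusted p = 0.467). SLC16A3 (MCT4), which exports lactate, was at 5.39 and 16.4 FPKM in DOX libraries, against 39.7 and 33.6 FPKM in noDOX libraries (log2 difference -1.83, SE 0.52). EDN1, the vasoconstrictor endothelin, was at 20.9 and 33.1 FPKM in DOX libraries, against 64.3 and 52.4 FPKM in noDOX libraries. BHLHE40, a repressor induced by hypoxia and many other signals, was at 27.6 and 47.6 FPKM in DOX libraries, against 77.0 and 79.6 FPKM in noDOX libraries. These 4 genes were named for having the smallest p of the list, so that their DOX values lay below their noDOX values adds no support. In each of the 4 the value of DOX library 1 was the lowest of the 4 libraries. The 3 genes with both DOX libraries above were AK4, GBE1 and KDM4C.

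A list of other genes in or near glycolysis and a list of pyruvate entry and gluconeogenesis genes had medians near 0. The first is not the rest of the pathway, since it also holds transporters, BSG, C12orf5 and PGAM5. Of the 16 tested genes of that first list, 8 had log2 differences below 0 and 8 above, with a median of -0.033. Of these, 0 were called by limma (0 at an unadjusted p under 0.05). PKM2, the row of pyruvate kinase M, was at 830.5 and 1282 FPKM in DOX libraries, against 1482 and 1117 FPKM in noDOX libraries, with overlap (log2 difference -0.32, SE 0.47). SLC16A1 (MCT1), a lactate transporter, was at 17.1 and 14.1 FPKM in DOX libraries, against 10.2 and 11.4 FPKM in noDOX libraries, without overlap (log2 difference 0.49, SE 0.20; limma, adjusted p = 0.832). It therefore stood above, and SLC16A3 below, the noDOX libraries. ENO3, the muscle enolase, was at 23.1 and 21.5 FPKM in DOX libraries, against 28.7 and 31.9 FPKM in noDOX libraries. GAPDHS, the sperm form of GAPDH, ran from 1.75 to 2.05 FPKM in DOX and from 2.77 to 2.87 FPKM in noDOX libraries. Of 22 tested genes of pyruvate entry and gluconeogenesis, 12 had log2 differences below 0 and 10 above, with a median of -0.0092, and 0 were called by limma (0 at an unadjusted p under 0.05). ME1, malic enzyme, was at 43.6 and 41.7 FPKM in DOX libraries, against 32.7 and 23.4 FPKM in noDOX libraries. PDK3, a relative of PDK1, was at 4.54 and 5.51 FPKM in DOX libraries, against 7.52 and 6.70 FPKM in noDOX libraries, and PDHX, a component of the pyruvate dehydrogenase complex, was at 15.6 and 19.5 FPKM in DOX libraries, against 24.8 and 24.002 FPKM in noDOX libraries.

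Copies of the enzymes limit some of these values. In GENCODE release 29, 13 of the 35 genes have pseudogenes named after them, 62 for GAPDH, 39 for BNIP3 and 13 for PGAM1, and the sources used here do not say how reads matching several places were assigned. Of the 35 genes, 23 share exon bases with another annotated gene, among them CA9, VEGFA, ANGPTL4 and ALDOC.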

How the data were processed

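Polyadenylated RNA of 4 A549 libraries was sequenced, 2 DOX and 2 noDOX, grouped by title. The authors deposited 1 table of FPKM, made per the submitters' processing notes on hg19 with Cufflinks 2.2.1, Cuffdiff, Bowtie and TopHat2 2.0.10. The sources used here give no annotation, strand setting or between-library scaling, and depth is unknown. The FPKM sums were 975728 and 1238483 in DOX libraries 1 and 2, against 1381822 and 989493 in noDOX libraries 1 and 2, of which small RNA genes held 34.8 to 41.9%.

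Genes whose mean reached 1 FPKM were tested on log2(FPKM + 1) with limma 3.58.1 in R 4.3.3, with trended moderation, 2 residual degrees of freedom, two-sided p and Benjamini-Hochberg adjustment over 12504 genes. The fit was tested on simulated data with independent noise of equal spread for all genes. Library differences shared by many genes, as seen here, were not simulated, so that test does not cover them. Nothing in the labels gives a separate origin for replicates, so p-values cover only the spread of these libraries, possibly a technical one. The genes and lists were chosen with earlier results of these data known. Of each other list, up to 4 genes with the smallest p were named, beside HIF1A, EPAS1, ARNT, VHL, EGLN2, PKM and PDK4. Transcript lengths, pseudogenes and exon overlaps came from GENCODE release 29 by symbol, with a length for 96.9% of tested genes. Alternatives covered the pseudocount, filter, scaling, moderation, small RNA genes, replicate block and each library left out. The crossed block and the length trend were added after seeing the data.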

Additional observations from a re-analysis of the deposited data

How the results depend on the processing

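With 2 libraries per group, no gene of the 35 passed over all genes in the main test, and 0 passed in any alternative except the replicate block. Same-numbered libraries did not deviate together (correlation -0.352 over 12504 genes), so the numbers are not taken to pair the libraries. With the replicate block 65 genes were called, 1 of them among the 35, CA9 (limma, adjusted p = 0.0301; over all its alternatives 0.0301 to 0.459). With the crossed pairing as a block 7 genes were called, 0 of them among the 35. The number of genes called over all tested was 11 in the main test, 7 with a pseudocount of 5, 7 with the length trend removed, 1 without the filter, 1 without small RNA genes, and 41 to 63 with 1 library left out. The cause was not tested.

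Outside the fits that leave out a library, each of the 35 kept its sign in every alternative that tested it, except ENO1, at 0.073 after quantile normalization. With 1 library left out, log2 differences that changed sign ran from -0.13 to 0.38 for ADM, from -0.42 to 0.030 for BNIP3, from -0.12 to 0.23 for EGLN3, from -0.42 to 0.18 for ENO1, from -0.69 to 0.096 for GAPDH, from -0.32 to 0.20 for HK1, from -0.12 to 0.49 for HK2, from -0.044 to 0.89 for P4HA1, from -0.65 to 0.14 for PGAM1, from -1.71 to 0.39 for SLC2A3 and from -1.03 to 0.095 for TPI1. Those of CA9 ran from -2.66 to -2.01, of ALDOC from -1.41 to -1.004, of ANGPTL4 from -2.44 to -1.34, of PFKFB3 from -1.34 to -0.78 and of VEGFA from 0.88 to 1.31. The number of the 35 below 0 ran from 25 to 27 with 1 library left out, and of 38 other hypoxia-induced genes from 28 to 31. The median over the glycolysis genes ran from -0.65 to -0.23, the last without DOX library 1, that over all 35 from -0.46 to -0.28, and that over the other 14 from -0.48 to -0.077, the last without noDOX library 2.

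The differences in paralog share, DOX minus noDOX in percentage points, with 1 library left out ran from -0.883 to -0.392 for ALDOC, -4.03 to -0.0183 for ENO2, 2.62 to 6.77 for LDHB, 0.236 to 1.40 for HK2, -24.7 to 2.24 for SLC2A3, 4.55 to 8.70 for PFKP, -0.576 to 0.519 for PFKFB4, 4.08 to 7.40 for EGLN3, -19.98 to -5.13 for P4HA2 and -2.37 to 6.62 for BNIP3. On the log2 scale PFKFB4 against PFKFB3 differed by 0.39, opposite in sign to its share difference of -0.0286 points.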

Other observations

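GAPDH is often used as a reference transcript, and its highest library was 2.03 times its lowest. Taken as a percentage of GAPDH within each library, PGAM1 was at 4.41 and 4.41% in DOX libraries, against 4.26 and 4.32% in noDOX libraries, so the spread of PGAM1 between libraries almost vanished. LDHA was at 11.2 and 14.3% of GAPDH in DOX libraries, against 15.998 and 19.5% in noDOX libraries. ALDOA was at 9.06 and 8.77% in DOX libraries, against 10.4 and 12.6% in noDOX libraries, and LDHB at 28.9 and 31.9% in DOX libraries, against 33.9 and 34.4% in noDOX libraries. On this scale LDHA, ALDOA and LDHB were lower in DOX without overlap, and PGAM1 was narrowly higher without overlap. TPI1, PGK1, ENO1 and PFKP overlapped between groups, TPI1 and PGK1 with lower and ENO1 and PFKP with higher DOX means. CA9 was at 0.00549 and 0.00591% of GAPDH in DOX libraries, against 0.0666 and 0.181% in noDOX libraries. Percentages of GAPDH were computed only for the genes named here. There is therefore no background for this scale, and lack of overlap on it is a description. By FPKM without this scaling, 17.3% of all tested genes lay lower and 14.7% higher in both DOX libraries.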
